A study of Sus scrofa with 45 samples.

Results

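Added sucrose was examined in whole blood of male miniature pigs after 27 weeks on 1 of 2 lipid-rich diets. The HFCSD group ate feed with added lard, cholesterol and sucrose, and the HFCD group ate feed with added lard and cholesterol only. The members were chosen by the titles of the arrays, and they are 6 of the 45 arrays of the series, 3 for each diet. Whole blood of 4 control pigs on standard feed, taken at the same 27 weeks, was measured on the same kind of array and is given beside both diets.

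The series follows Clawn miniature pigs on the 3 diets, with whole blood taken at 10, 19 and 27 weeks and white blood cells at 27 weeks. All pigs were males of a specific-pathogen-free breeding facility, were housed singly and began their diets at the same age, so the groups share breed, sex, housing and age. Whole blood RNA was preserved in tubes that lyse all blood cells at once, labelled with Cy3 and hybridized to an Agilent porcine oligonucleotide array of 43603 probes, 1 sample per array. The labels give each array the number of a pig within its group and do not say whether the same number at another period is the same pig. The limma p-values below measure the spread between these samples.

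Whole blood RNA is a mixture. Most of it comes from leukocytes, reticulocytes and platelets, and small amounts can come from other tissues. Sucrose is split in the gut into glucose and fructose, and fructose is taken up mainly by the liver, where it feeds fatty acid synthesis under the transcription factors SREBP-1c and ChREBP. Dietary cholesterol lowers the genes of cholesterol synthesis through SREBP-2 and raises cholesterol efflux genes through the LXR receptors.

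Adding sucrose to the lard and cholesterol diet left few differences in whole blood that passed the test over all probes. Of 18003 probes tested, 0 were higher and 2 were lower with HFCSD at an adjusted p under 0.05 (limma, Benjamini-Hochberg), which is 0.0111% of the probes. With HFCSD neither was well above background, a mark that the scanner software sets on each spot, and none was called among probes with that mark on every array of both diets. Both called probes have no gene symbol, and the files describe 1 of them as a fragment of insulin receptor substrate-1. No gene with a symbol passed. Among genes whose groups did not overlap, the lowest unadjusted p on the higher side were those of the receptor kinase GRK7, the MOB family adaptor MOBKL3, the carbonyl reductase DHRS4, the muscle filament DES and, on 1 of its 2 probes, the pantetheinase VNN1. On the lower side they were those of the hormone gene CGA and of CD34, GHRL, SSTR5 and UCP3, and of these 5 only CGA was well above background on the HFCSD arrays.

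At an unadjusted p under 0.05, 2259 probes differed (12.5%), of which 1006 were higher (5.59%) and 1253 lower (6.96%) with HFCSD. The excess of lower probes turned round with probes well above background on every array of both diets (1000 higher, 735 lower), with slide as a fixed block (1713 and 758) and with 75th percentile scaling (1128 and 994), and it was 1045 and 1082 after normexp. The count itself rested on single arrays: it was 887 without HFCD replicate 1, 4262 without HFCD replicate 2 and 1253 without HFCD replicate 3. Without HFCSD replicate 1 it was 874 and without HFCSD replicate 3 it was 3551, while HFCSD replicate 2 moved it less (1845). Levels are log2 intensities after quantile normalization, so a difference of 1 is a doubling. The median difference (HFCSD minus HFCD) was -0.16 over all probes tested and -0.02 over the 1255 tested genes with a symbol, of which 594 were higher and 661 lower. All 3 HFCSD arrays lay above all 3 HFCD arrays for 912 probes (5.07%) and below them for 2088 (11.6%). Of the 2088, 304 were well above background on 0 HFCSD arrays and 221 on 1 or 2, with all 3 HFCD arrays so marked. The other way round it was 5 and 56 of the 912. Among the 15076 probes well above background on every array of both diets, 838 were apart on the higher side and 1563 on the lower. Among genes with a symbol the same separation held for 82 on the higher side (6.53%) and 106 on the lower side (8.45%), and 102 genes were higher (8.13%) and 63 lower (5.02%) at an unadjusted p under 0.05 on any probe.

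The first called probe, A_72_P371473, matches a transcript that the files describe as a complete fragment of insulin receptor substrate-1, the docking protein that passes the signal of the insulin receptor to PI3-kinase. Its log2 level was 4.52, 4.81 and 3.93 on the HFCD arrays and 1.53, 1.45 and 1.42 on the HFCSD arrays. The 3 HFCSD arrays lay close together and far below the lowest HFCD array, and the 4 control arrays, at 3.71, 4.09, 3.88 and 3.64, lay near HFCD replicate 3 and below the other HFCD arrays. The computed difference was -2.95 (SE 0.257) with an adjusted p of 0.00475 (limma). The second, A_72_P139261, matches an unnamed pig cDNA. Its level was 4.63, 4.35 and 4.66 on the HFCD arrays and 2.63, 2.73 and 2.59 on the HFCSD arrays, with controls between 4.15 and 4.65. Here too the HFCSD arrays stood below every other array, and the computed difference was -1.90 (SE 0.220) with an adjusted p of 0.0370 (limma).

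Neither probe was well above background on any of the 3 HFCSD arrays. Both passed the filter through HFCD alone, and their differences and p-values rest on HFCSD values not well above background, so only a bound on the size can be given. The bound sets the HFCD mean against the mean, over the HFCSD arrays, of the higher of the lowest level marked well above background on that array and the level of the probe itself. It holds for means of the quantile normalized levels, not for other scalings, and makes no allowance for the spread between arrays. By that bound A_72_P371473 was at least 1.09-fold lower and A_72_P139261 at least 1.19-fold lower with HFCSD. The 60-base probe sequences are given because no symbol names these transcripts.
A_72_P371473: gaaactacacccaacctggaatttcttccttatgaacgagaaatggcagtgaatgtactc
A_72_P139261: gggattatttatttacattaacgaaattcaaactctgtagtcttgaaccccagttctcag

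The count of 2 rested on the filter, the scaling and single arrays. It was 0 of 15079 with presence required on every usable array of both diets, 0 when each array was scaled by its 75th percentile and 0 after normexp background correction, where A_72_P371473 differed by -2.12 and -0.42. It was 0 without HFCD replicate 1, 17 without HFCD replicate 2, 42 without HFCSD replicate 3 and 3 without HFCSD replicate 2. The count was 1 without HFCD replicate 3, without HFCSD replicate 1 or without control replicate 1, 2 or 3. The 6 arrays lay on slides 11 to 13, scanned on 1 day. Slide 12 held HFCD replicates 1 and 3 and HFCSD replicate 2, slide 11 held HFCSD replicates 1 and 3, and slide 13 held HFCD replicate 2. Within slide 12, A_72_P371473 differed by -2.77 and A_72_P139261 by -1.92, and with slide as a fixed block by -2.98 and -1.73. The count was 0 with slide as a fixed block and 2 with slide as a random block. Slide 12 held 1 HFCSD array, so no count is given within it.

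The diets also differed in how much of each array could be read. Spots well above background made up 48.9%, 43.6% and 46.0% on the HFCD arrays and 39.6%, 38.8% and 39.7% on the HFCSD arrays. All 3 HFCSD arrays lay below all 3 HFCD arrays. Control arrays gave 50.2%, 49.4%, 46.5% and 38.9%, so control replicate 4 was as dim as the HFCSD arrays and the other controls were not. The mean difference of -6.79 percentage points had an exact two-sided permutation p of 0.1, the smallest that the 20 assignments of 3 against 3 arrays allow. Accordingly, 594 of the tested probes were well above background on 3 HFCD arrays and on 0 HFCSD arrays, against 5 probes the other way round. The median difference of the 594 was -0.99. Its sign follows from how they were chosen, and its size rests on HFCSD levels not well above background. The 15076 probes well above background on all 3 arrays of each diet (15079 when arrays with an outlier spot are passed over) had a median difference of -0.11. The part of this difference in signal in the probe and gene results was not tested. A fit (limma) with the share of spots as a covariate called 0 probes and gave 863 at an unadjusted p under 0.05. Because the shares did not overlap between the diets, this fit cannot tell share and diet apart. Its values here and below only show how far the results moved.

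**Figure D1:**
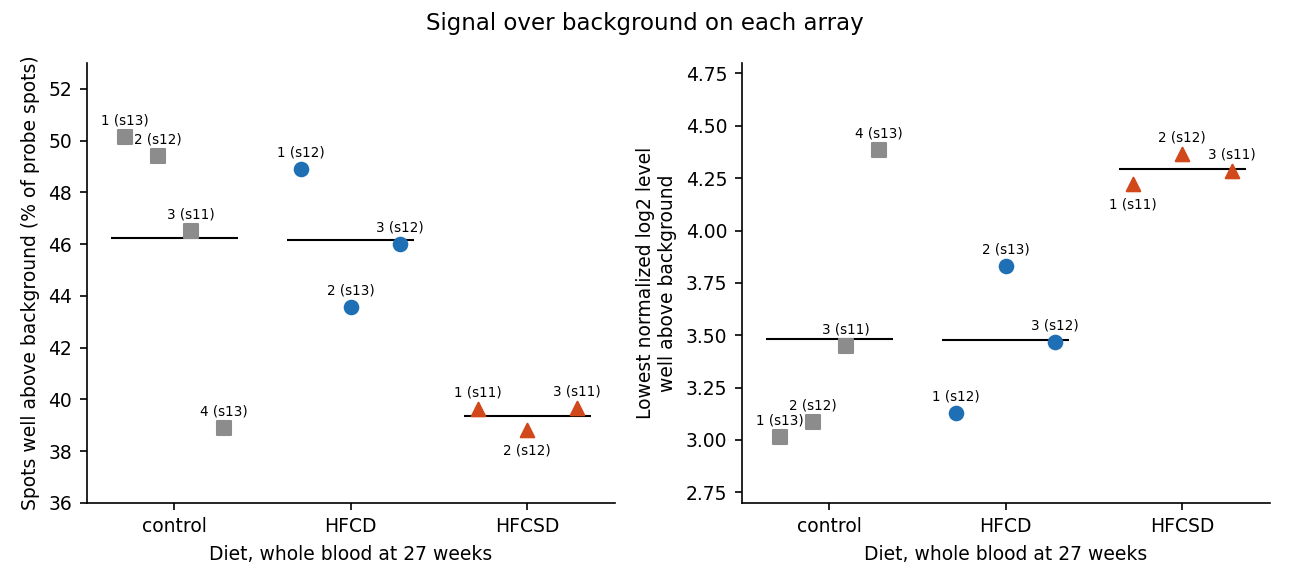
Percent of probe spots well above background (left) and lowest normalized log2 level among probes well above background (right) on each array of whole blood at 27 weeks, with bars for group means and the replicate and slide number beside each point. The 3 HFCSD arrays (38.8% to 39.7%) and control replicate 4 (38.9%) have the lowest shares and the highest thresholds.

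The arrays of 1 diet were not all alike. On the first principal component, which held 51.1% of the variance, the HFCSD arrays scored 103, 57.7 and 35.8 and the HFCD arrays -58.3, 44.7 and -11.9. HFCD replicate 2 thus lay among the HFCSD arrays. Its levels correlated across probes with the HFCSD arrays at 0.955, 0.974 and 0.966, and with the other HFCD arrays at 0.931 and 0.961. Probes are not independent replicates, and these values only describe the arrays. The same array recurs below as the highest HFCD array for many genes whose HFCSD levels were high.

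The 12 named genes with higher levels under HFCSD were those with the lowest unadjusted p among genes whose groups did not overlap, since none passed the adjustment (adjusted p 0.363 to 0.393, limma). Of the 12, 11 are described, by their values and not as changes. GRK7, a kinase that shuts off G protein-coupled receptors and is best known from cone photoreceptors, had log2 levels of 6.72, 8.39 and 7.42 with HFCD and 10.66, 10.45 and 8.76 with HFCSD. HFCSD replicate 3 was close to HFCD replicate 2, while the other HFCSD arrays were well above it, and the 4 controls, at 5.79 to 6.73, lay below HFCD replicates 2 and 3. The difference of 2.45 (SE 0.544), or 5.45-fold, was the largest of the 12 and had an adjusted p of 0.363. Without HFCSD replicate 3 it was 3.04 with an adjusted p of 0.0426.

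The receptor gene MC1R, which encodes the melanocortin receptor that controls pigment type, was at 5.08, 5.995 and 5.67 with HFCD and at 6.93, 7.03 and 6.41 with HFCSD. HFCD replicate 2 and HFCSD replicate 3 were the nearest arrays, and the groups did not overlap. Its difference was 1.21 (SE 0.358).

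Enzymes of lipid and redox metabolism formed the next group. ACSL1, which activates long-chain fatty acids with coenzyme A, had levels of 8.69, 10.72 and 8.78 with HFCD and 11.51, 11.30 and 10.73 with HFCSD. HFCD replicate 2 nearly reached HFCSD replicate 3, and the controls lay between 7.85 and 8.25, below every array of both diets. The difference was 1.79 (SE 0.475), or 3.45-fold, and without HFCD replicate 2 it was 2.45 with an adjusted p of 0.0245. VNN1, the pantetheinase that recycles coenzyme A precursors, was at 8.76, 10.62 and 10.21 with HFCD and at 11.91, 12.04 and 11.17 with HFCSD. Its difference of 1.84 (SE 0.464) came from 1 probe, and a second tested probe of the gene gave -0.06, so the probes of VNN1 disagreed. DHRS4, a peroxisomal reductase of retinal and other carbonyls, was at 4.30, 4.40 and 3.99 with HFCD and at 5.57, 6.20 and 5.10 with HFCSD. Its 3 tested probes gave 1.39, 1.19 and 1.23.

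ROMO1, an inner mitochondrial membrane protein that modulates reactive oxygen species, reached 13.21, 13.99 and 13.15 with HFCD and 15.56, 15.61 and 15.22 with HFCSD. Controls ranged from 10.18 to 12.47, so the 3 diets stood in order with no overlap on this probe. The difference was 2.01 (SE 0.532), or 4.03-fold, and the other 3 tested probes gave 0.67 to 0.80. PSMD4, the proteasome subunit that binds ubiquitin chains, was at 8.17, 8.26 and 7.75 with HFCD and at 9.17, 9.59 and 9.01 with HFCSD, and its second probe gave 0.79. SIAH2, a ubiquitin ligase of the hypoxia response, was at 8.90, 9.60 and 9.02 with HFCD and at 10.45, 9.86 and 10.07 with HFCSD. For both genes the HFCSD arrays were above all HFCD arrays, and the differences were 1.20 (SE 0.343) and 0.95 (SE 0.295).

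The remaining genes of this group have unlike roles. MOBKL3, a MOB family adaptor listed in the files as preimplantation protein 3, was at 7.27, 7.40 and 7.33 with HFCD and at 8.24, 8.32 and 8.10 with HFCSD, the tightest groups of the 12 (SD 0.0620 and 0.113), with a difference of 0.89 (SE 0.216). DES, the intermediate filament of muscle, was at 8.56, 10.16 and 9.34 with HFCD and at 11.18, 11.01 and 10.502 with HFCSD, and its second tested probe gave 0.80. WFDC2, a secreted protease inhibitor of epithelia, was at 10.63, 10.77 and 10.62 with HFCD and at 11.63, 11.21 and 11.37 with HFCSD, a difference of 0.73 (SE 0.208), with 0.46 on a second probe. Controls of WFDC2 lay between 9.81 and 10.08, below every HFCD array.

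The 12 named genes with lower levels under HFCSD were chosen in the same way and had adjusted p of 0.351 to 0.393 (limma). CGA encodes the alpha subunit shared by the glycoprotein hormones of the pituitary. Its levels were 6.36, 6.27 and 5.85 with HFCD and 4.97, 5.07 and 5.15 with HFCSD, with controls from 6.33 to 6.73. The HFCSD arrays were the lowest of all 10 arrays, and the difference was -1.097 (SE 0.222), with -0.87 on a second probe. GHRL, the precursor of the stomach hormone ghrelin, was at 3.74, 4.86 and 4.17 with HFCD and at 2.57, 2.52 and 2.57 with HFCSD, and SSTR5, a somatostatin receptor that restrains hormone release, was at 4.18, 4.07 and 3.93 and at 3.33, 2.54 and 2.13. Neither gene was well above background on any HFCSD array, and their bounds were under 1, so no fold is given.

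CD34, UCP3, FCN2 and DCT were likewise not well above background on any HFCSD array. Like GHRL and SSTR5 they passed the filter through HFCD alone, and the p beside each bound is that of the computed difference and not of the bound. The bounds hold for the quantile normalized means only. After normexp the computed differences were smaller than the bounds, at -0.36 for CD34, -0.43 for UCP3, -0.40 for FCN2 and -0.43 for DCT. CD34, a surface glycoprotein of hematopoietic progenitors and endothelium, was at 4.98, 4.81 and 5.02 with HFCD and at 2.25, 3.73 and 3.49 with HFCSD, at least 1.56-fold lower (adjusted p 0.363). UCP3, the mitochondrial uncoupling protein of muscle, was at 4.94, 5.21 and 5.35 with HFCD and at 2.33, 3.92 and 4.02 with HFCSD, at least 1.83-fold lower (adjusted p 0.393). FCN2, a ficolin that binds microbial sugars and starts the lectin pathway of complement, was at 5.37, 4.87 and 5.61 with HFCD and at 4.43, 3.89 and 3.37 with HFCSD, at least 1.90-fold lower (adjusted p 0.393). DCT, a melanin synthesis enzyme, was at 4.83, 4.55 and 4.95 with HFCD and at 1.56, 3.63 and 3.49 with HFCSD, at least 1.40-fold lower (adjusted p 0.393). For CD34, UCP3 and DCT the HFCD arrays lay within the range of the controls, and for all 4 genes every HFCSD array was below every HFCD array.

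WNT10B, a secreted WNT ligand that holds back fat cell formation, was at 6.48, 6.22 and 6.70 with HFCD and at 3.72, 5.08 and 5.60 with HFCSD, where 2 of 3 arrays were well above background. NPL, which cleaves sialic acid, was at 6.30, 6.07 and 6.18 with HFCD and at 3.61, 5.01 and 5.51 with HFCSD, again with 2 of 3 arrays well above background, and its other 2 probes gave -0.80 and -0.79. HFCSD replicate 1 was the lowest array for both. The differences were -1.67 (SE 0.438) and -1.48 (SE 0.408).

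AQP3, a channel for water and glycerol, was at 9.71, 9.65 and 9.98 with HFCD and at 8.55, 9.15 and 8.63 with HFCSD. TOP2A, the topoisomerase of dividing cells, was at 8.19, 8.07 and 8.40 with HFCD and at 7.18, 7.21 and 7.70 with HFCSD, and a second tested probe gave -0.15. PCF11, a factor of mRNA 3' end cleavage, was at 8.77, 8.73 and 8.84 with HFCD and at 7.51, 7.62 and 8.37 with HFCSD. These genes were bright on every array, and their differences were -1.005 (SE 0.272), -0.85 (SE 0.234) and -0.95 (SE 0.271).

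**Figure D2:**
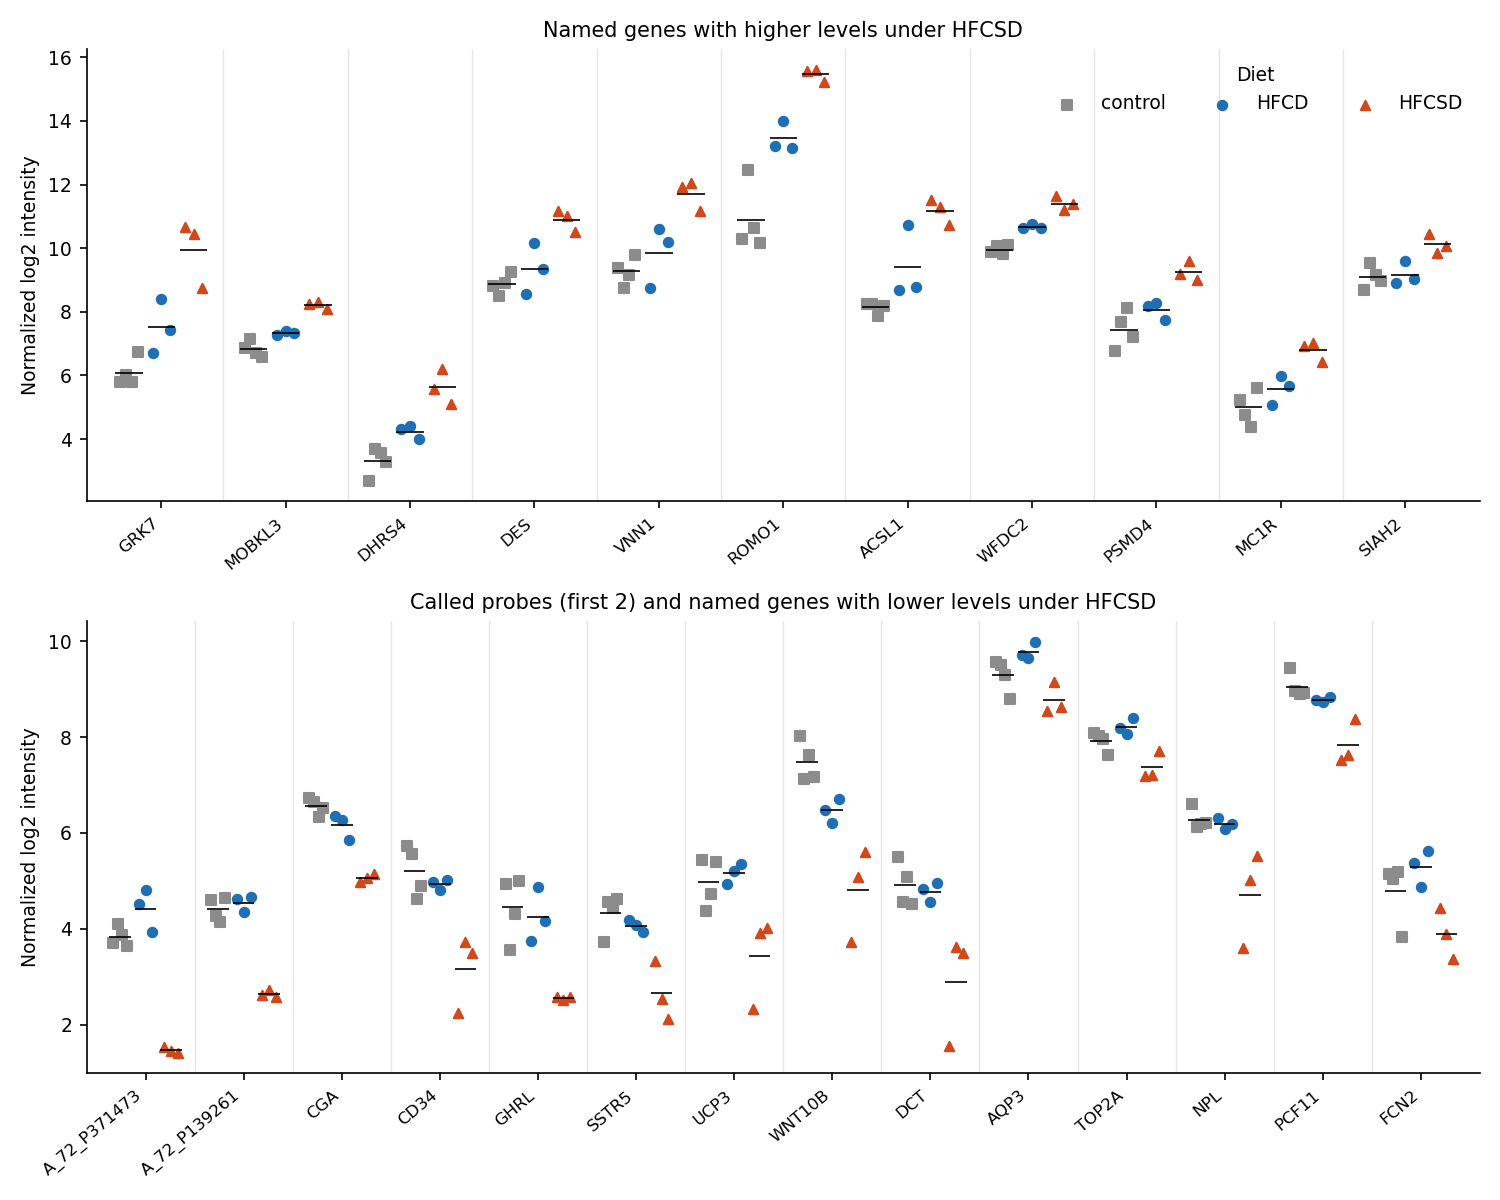
Normalized log2 intensity of the genes described and the 2 called probes on each array of whole blood at 27 weeks, with squares for control, circles for HFCD, triangles for HFCSD and bars for group means. The triangles lie beyond all circles in every column, which the choice of genes required, and the largest separation on the higher side is that of GRK7 (2.45).

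The sign of these differences was fixed by the choice of genes, so its recurrence under other settings is no sign of stability. The sizes did move. After normexp the difference was 2.05 for GRK7, 1.66 for ACSL1 and 1.91 for ROMO1 but 0.36 for DHRS4, -0.36 for CD34 and -0.20 for GHRL, so the dim genes shrank most. Within slide 12 the difference was 3.38 for GRK7, 2.57 for ACSL1, 2.43 for ROMO1, -1.04 for CGA and -1.26 for CD34. With the share of spots as a covariate it was smaller for GRK7 (1.64) and VNN1 (1.104) and larger for ROMO1 (2.42) and MOBKL3 (1.08). Genes not well above background on any HFCSD array are left out of this last comparison. For CD34 and GHRL, which are among them, the values above are computed and no measured sizes.

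Gene lists by pathway and cell type held 1280 genes in 32 lists, of which 527 were on the array by symbol and 361 were tested. None of the 361 passed the adjusted test (limma), and the shares to read the lists against are those given above, 6.53% of genes with all HFCSD arrays higher and 8.45% with all lower. A gene level is the mean of its tested probes. Levels of different probes do not compare amounts of RNA, so the brightest gene of a list need not be the most abundant. Of the list members given below, SQLE, MSMO1, FASN, DGAT1, SLC16A1, PFKM, HSPH1, CXCL10, TLR8, KLF4, P2RX1, TBXAS1, FCGR1A, CYP3A46 and ADRB3 had at least 1 probe that was not well above background on every array of both diets, so their differences rest in part on levels that were not measured. The medians of 14 lists lay above that of all genes (-0.02) and those of 18 below. With 1 array of either diet left out, 31 of the 32 medians moved by more than 1.5 times at least once, and 16 changed sign.

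Genes of cholesterol and lipid handling were examined first. The cholesterol synthesis list had 2 tested genes, SQLE (-0.53), the squalene epoxidase, and MSMO1 (-1.15), the sterol C4 oxidase, with a median of -0.84 that was -0.29 over all 3 genes on the array. The probe of MSMO1 that was well above background on every array was at 6.62, 6.11 and 6.62 with HFCD and at 4.62, 5.40 and 6.51 with HFCSD, and the groups overlapped. On that probe the controls lay between 7.03 and 7.52. In the list of sterol sensing and LDL uptake, 2 of 6 genes were higher and 4 lower, with a median of -0.06. SREBF1, which encodes the SREBP-1 factors of fatty acid synthesis, was at 9.91, 11.54 and 9.24 with HFCD and at 12.06, 12.48 and 11.97 with HFCSD. All HFCSD arrays were above all HFCD arrays, the difference was 1.94, its 2 probes gave 1.49 and 2.40, and controls had a mean of 8.74. The cholesterol transporter NPC1 (-0.37) and the SREBP retention factor INSIG1 (0.32, with its probes at -0.13 and 0.77) overlapped between the diets.

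SREBF1 is itself a member of the next 2 lists and their farthest from 0. In the list of fatty acid and triglyceride synthesis 4 of 6 genes were higher, with a median of 0.14. FASN, the fatty acid synthase, was at 6.58, 6.49 and 6.93 with HFCD and at 6.91, 7.94 and 6.71 with HFCSD, and only HFCSD replicate 2 stood out. The desaturase SCD (0.15) and the triglyceride enzyme DGAT1 (0.13) overlapped. In the list of LXR targets and cholesterol efflux 3 of 5 genes were higher, with a median of 0.15 that was -0.01 over all 11 genes on the array, among them PLTP (0.70), the phospholipid transfer protein, while the HDL receptor SCARB1 was at -0.18.

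Fatty acid oxidation and lipid storage had 19 tested genes, 10 higher and 9 lower, with a median of 0.02 that was of the other sign after normexp and -0.09 with slide as a fixed block. Besides UCP3, PPARD and PNPLA2 were among the members with the largest differences. PPARD, a fatty acid receptor of the nucleus, was at 4.96, 6.35 and 5.17 with HFCD and at 7.85, 6.86 and 6.40 with HFCSD. PNPLA2, the adipose triglyceride lipase, was at 6.23, 7.46 and 6.91 with HFCD and at 7.90, 8.48 and 7.42 with HFCSD. PPARD did not overlap between the diets, and for PNPLA2 HFCD replicate 2 lay above the lowest HFCSD array.

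Genes that take up or sense sugar showed small differences. Of 6 tested genes 4 were higher, none with all HFCSD arrays higher and 1 with all lower, and the median was 0.09. GYS1, the glycogen synthase of muscle and blood cells, was at 5.42, 6.08 and 5.44 with HFCD and at 6.28, 6.67 and 5.95 with HFCSD. The glucose transporter SLC2A1 (0.40), the glucose-induced TXNIP (-0.25) and the polyol enzyme AKR1B1 (0.15) overlapped. The fructose transporter SLC2A5 and the glucose transporters SLC2A2 and SLC2A4 were on the array but were not well above background on all arrays of either diet.

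Glycolysis had 2 of 6 genes higher and 4 lower, with a median of -0.36. SLC16A1, the lactate transporter, was at 6.41, 5.92 and 5.33 with HFCD and at 3.72, 4.59 and 5.46 with HFCSD, where 1 of 3 arrays was well above background. PFKM, a phosphofructokinase, was at 6.14, 6.16 and 5.86 with HFCD and at 5.42, 4.33 and 5.39 with HFCSD, and it was the only member with all HFCSD arrays lower. LDHB (-0.42) and TPI1 (0.34) overlapped. Of the pentose phosphate and antioxidant genes, 11 of 18 were higher, with a median of 0.13. CAT, the catalase, was at 11.59, 12.36 and 12.08 with HFCD and at 13.52, 12.74 and 13.53 with HFCSD, with no overlap and a difference of 1.26. The glutathione enzymes GPX2 (1.01) and GSTO1 (0.78) overlapped, while PGD (-0.49), of the pentose phosphate pathway, and the glutathione reductase GSR (-0.53) had all HFCSD arrays lower. The respiratory chain and ATP synthase list had 10 of 18 genes higher and a median of 0.06. That median was -0.02 with slide as a fixed block, -0.20 within slide 12 and -0.23 with the share of spots as a covariate. No member lay beyond 0.70 in either direction. Farthest from 0 were ATP5J2 (0.70), ATP5G2 (-0.50), ATP5I (0.46) and SDHA (0.40, with its probes at -0.12 and 0.92).

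Protein synthesis and turnover genes lay near the median of all genes. Ribosomal proteins had 15 of 33 genes higher, with a median of -0.10 that was 0.36 when arrays were scaled by the 75th percentile. Members far from 0 were RPS25 (-0.68), RPLP0 (0.58) and RPL22 (0.43). Translation factors had a median of -0.10, which was 0.12 by that scaling, with EIF4E at -0.36 and EIF4A2 at -0.30. The direction of both lists turned with the setting, also without HFCD replicate 1 (0.01 for ribosomal proteins and 0.11 for translation factors). The proteasome list had 7 of 10 genes higher and a median of 0.11. This was -0.03 with slide as a fixed block, -0.04 within slide 12 and 0.29 with the share of spots as a covariate. Of its members, PSMD4 was at 0.99 over its probes, PSMC5 at 0.40, PSMB9 at -0.27 and PSME2 at 0.25. Of the chaperones, HSP90B1, which folds proteins in the endoplasmic reticulum, was at 12.51, 11.78 and 12.32 with HFCD and at 10.88, 11.75 and 11.54 with HFCSD, without overlap. The other chaperones with the largest differences were HSPH1 (-0.69), HSP90AB1 (0.45) and HSPB1 (0.23), and the median of the 9 was -0.11, which was -0.42 with slide as a fixed block and 0.46 with the share of spots as a covariate.

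The medians of the 5 immune lists were below 0, and with the share of spots as a covariate 4 of them were above it: 0.19 for cytokines, 0.16 for Toll-like receptors, 0.18 for MHC class I and 0.27 for MHC class II. The interferon-induced list had 5 of 20 genes higher and 15 lower, with a median of -0.51, and all HFCSD arrays were lower for 7 of 20 genes, against 8.45% of all genes. CXCL10, a chemokine that draws T cells, was at 9.16, 9.95 and 10.91 with HFCD and at 8.63, 8.28 and 9.98 with HFCSD on the probe that was well above background on all 6 arrays, and the groups overlapped. OASL, an antiviral sensor of the OAS family, was at 7.84, 8.77 and 8.07 with HFCD and at 6.93, 7.21 and 6.90 with HFCSD, without overlap. MX1, a GTPase that blocks viruses, was at 14.23, 14.77 and 14.56 with HFCD and at 13.26, 13.77 and 13.86 with HFCSD, also without overlap. In controls MX1 had a mean of 13.06, below the means of both diets. OAS1 (0.85) went the other way through 1 of its 2 probes, which gave 1.79 and -0.08. The median of the list was -0.45 with 75th percentile scaling, -0.35 after normexp, -0.29 within slide 12, -0.06 with the share of spots as a covariate, -0.24 without HFCD replicate 3 and -0.30 without HFCSD replicate 1.

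Cytokines, chemokines and their receptors had 14 of 35 genes higher and 21 lower, with a median of -0.21 that was 0.22 within slide 12. IL4R, the receptor chain shared by IL-4 and IL-13, was at 6.70, 9.05 and 8.08 with HFCD and at 9.94, 9.46 and 8.95 with HFCSD. CSF3, the growth factor of neutrophils, was at 3.37, 4.30 and 4.03 with HFCD and at 5.40, 4.94 and 4.61 with HFCSD. Only CSF3 had all HFCSD arrays higher, and the cytokines IL10 (-0.64) and IL16 (-0.45) and the TNF receptor TNFRSF1A (-0.49) had all HFCSD arrays lower. The T cell chemokine receptor CXCR3 (1.08) and the chemokine CCL25 (1.03) were highest in HFCSD replicate 1, with HFCD replicate 2 among the HFCSD arrays.

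Toll-like receptors and NF-kB genes had 5 of 15 higher, a median of -0.21, and 3 members with all HFCSD arrays lower. TLR8, an endosomal sensor of single-stranded RNA, was at 4.75, 4.88 and 4.77 with HFCD and was not well above background on 3 of 3 HFCSD arrays. It passed the filter through HFCD alone and was at least 1.42-fold lower with HFCSD. The adjusted p of 0.393 (limma) is that of its computed difference and not of the bound. TLR4, the receptor of bacterial lipopolysaccharide, was at 7.41, 7.29 and 7.32 with HFCD and at 5.75, 7.04 and 7.02 with HFCSD as the mean of 4 probes, of which each was lower. The adaptor MYD88 was at 14.02, 15.87 and 15.08 with HFCD and at 15.93, 15.44 and 15.73 with HFCSD. The difference of TRAF6 (-0.66) came from 1 high HFCD array, replicate 3 at 8.82. MHC class I and peptide loading genes had a median of -0.09, which was 0.00 with 75th percentile scaling, with TAP1 at -0.60 and the class I genes SLA-3 at -0.39 and SLA-1 at -0.09. MHC class II genes had 1 of 5 higher and a median of -0.26. SLA-DQB1 was at 14.14, 14.37 and 14.69 with HFCD and at 12.31, 13.25 and 14.29 with HFCSD, with overlap at HFCSD replicate 3, and SLA-DRA (-0.33), SLA-DRB1 (-0.26) and SLA-DMA (-0.23) overlapped too.

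Of the immediate early and stress response genes 2 of 13 were higher and 11 lower, with a median of -0.42. The transcription factor KLF4 (-0.85), well above background on 1 of 3 HFCSD arrays, and the oxygen sensor HIF1A (-0.71) overlapped. Cell cycle genes had 3 of 10 higher and a median of -0.41. CCNB1, the cyclin of mitosis, was at 7.15, 6.96 and 7.18 with HFCD and at 6.27, 6.45 and 6.41 with HFCSD, without overlap, and CDC20 (-0.62) went the same way with overlap. BIRC5, a survivin, was at 11.22, 11.68 and 10.55 with HFCD and at 13.10, 12.89 and 10.72 with HFCSD, and CDKN3 (0.82) overlapped as well. With the share of spots as a covariate the median of the stress list was -0.11 and that of the cell cycle list -0.04.

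Markers of blood cell types were measured to describe the mixture. In whole blood, fewer cells of a type and less RNA per cell cannot be told apart. The erythroid list had 5 of 52 genes on the array, and 2 were tested. The embryonic-type globin HBE1, the brightest of the list, was at 13.08, 13.88 and 13.49 with HFCD and at 14.55, 14.30 and 13.79 with HFCSD. The groups overlapped between HFCD replicate 2 and HFCSD replicate 3. The summed level of the list was 13.29, 14.26 and 13.91 on the HFCD arrays and 15.06, 14.66 and 14.66 on the HFCSD arrays, with controls from 12.85 to 14.60. Its median of 1.17 was the highest of the 32 lists and was 0.19 over all 5 genes on the array and 0.09 with the share of spots as a covariate. The adult globins and glycophorins that define red cells have no symbol among the named probes, and the part of red cell RNA in the other results was not tested.

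Platelet markers had 9 of 12 genes higher and a median of 0.21, with 0 genes apart in either direction. The summed level was 13.50, 14.41 and 13.80 with HFCD and 14.94, 14.43 and 13.53 with HFCSD, so that HFCSD replicate 1 was the highest of the 6 arrays and HFCSD replicate 3 the second lowest. SELP and PPBP, both of platelet granules, were at 12.44 and 10.51 in HFCSD replicate 1 and at 9.15 and 6.37 in HFCSD replicate 3. THBS1 (1.09), TBXAS1 (-0.71), GUCY1B3 (0.51) and P2RX1 (0.42) differed most in the mean, and ITGB3 was the brightest. Without HFCSD replicate 1 the median was -0.23.

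Neutrophil markers had 6 of 13 genes higher and a median of -0.23, which was 0.38 within slide 12 and 0.06 with slide as a fixed block. PGLYRP1 (1.103), ARG1 (1.06) and NPG4 (0.72) were higher in the mean with HFCSD, and MMP9, a gelatinase of granules, was at 13.34, 13.67 and 13.34 with HFCD and at 13.09, 12.38 and 12.81 with HFCSD. Only MMP9 did not overlap. The list summed to 16.26, 15.91 and 16.01 with HFCD and to 15.51, 15.71 and 16.04 with HFCSD, with FCGR3A the brightest.

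T cell and NK cell markers had 6 of 13 genes higher and a median of -0.27, which was 0.05 with 75th percentile scaling and 0.02 over all 18 genes on the array. KLRK1, the activating receptor NKG2D, was at 10.75, 10.18 and 10.38 with HFCD and at 9.45, 9.95 and 9.81 with HFCSD, without overlap. TRAT1 (-0.61) did not overlap either, and ICOS (-0.52) and CD8A (-0.45) did. The summed level, led by the cytotoxic granule gene GNLY, was 15.83, 15.87 and 15.66 with HFCD and 15.14, 15.82 and 15.43 with HFCSD. B cell and plasma cell markers had 3 of 5 genes higher and a median of 0.00. The median was -0.03 with 75th percentile scaling, -0.01 after normexp, -0.26 with slide as a fixed block and -0.13 within slide 12. It was 0.49 with the share of spots as a covariate. PRDM1 was at -0.46, VPREB1 at 0.31 and CD40, the brightest, at -0.12. The summed level of the list was 12.09, 11.30 and 11.63 with HFCD and 11.59, 11.76 and 11.54 with HFCSD.

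Monocyte and macrophage markers had 8 of 25 genes higher and 17 lower, with a median of -0.23 that was 0.08 within slide 12. Besides FCN2, the members farthest from 0 were FCGR1A (-1.07), a high-affinity IgG receptor well above background on 1 of 3 HFCSD arrays, GPNMB (1.00), without overlap, and CEBPB (-0.71). The summed level was 15.97, 15.36 and 15.57 with HFCD and 14.92, 15.67 and 15.42 with HFCSD, and CST3 was the brightest. Eosinophil, basophil and mast cell markers had 2 of 5 genes higher and a median of -0.17. Among them GATA2, a factor of early blood cells and mast cells, was at 7.90, 9.92 and 8.94 with HFCD and at 10.56, 10.57 and 9.83 with HFCSD. KIT (-0.65), without overlap, ALOX15 (-0.52), the brightest, and CCR3 (0.32) followed. The list summed to 12.40, 12.45 and 12.52 with HFCD and to 12.26, 12.58 and 12.01 with HFCSD.

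Lists of genes typical of other tissues shared members with each other and with the blood lists, and 47.3% of all tested genes were higher. The liver list had 45 of its 66 genes on the array and 16 tested, 13 higher and 3 lower, with a median of 0.80. CRP, the acute phase C-reactive protein, was at 7.14, 10.19 and 9.34 with HFCD and at 10.93, 10.60 and 10.14 with HFCSD. VTN, the plasma adhesion protein vitronectin, was at 7.99, 10.88 and 10.06 with HFCD and at 11.58, 10.90 and 11.05 with HFCSD. HFCD replicate 1 was low and the other HFCD arrays were near the HFCSD arrays for both, and only VTN had all HFCSD arrays higher. CYP3A46 (1.42) and APOC3 (1.23) overlapped. The summed level was 11.38, 13.49 and 13.45 with HFCD and 13.88, 13.33 and 14.46 with HFCSD, against 11.23, 10.84, 10.90 and 13.14 in controls. The brightest gene was ARG1, which the neutrophil list also holds. Defining liver genes such as ALB, APOA1, TTR, SERPINA1 and FGG were not well above background on all arrays of either diet. The median was 0.39 without HFCD replicate 1, 1.33 without HFCD replicate 2, 0.36 over all 45 genes on the array, 0.41 after normexp, 1.24 within slide 12 and -0.03 with the share of spots as a covariate.

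The adipose list had 7 of 9 genes higher and a median of 0.43, which was 0.13 over all 17 genes on the array. Besides ACSL1 its members farthest from 0 were the adiponectin receptor ADIPOR1, at 8.31, 10.09 and 9.25 with HFCD and at 10.82, 10.51 and 9.84 with HFCSD, the fat cell receptor ADRB3 (1.02) and RBP4 (0.72). HFCD replicate 2 again lay among the HFCSD arrays. The list summed to 12.16, 12.82 and 12.08 with HFCD and to 13.21, 13.10 and 12.59 with HFCSD, with ADIPOR2 the brightest. The fat cell genes ADIPOQ, PLIN1 and FABP4 were not well above background on all arrays of either diet.

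Skeletal and heart muscle genes had 9 of 13 higher and a median of 0.14, which was 0.04 after normexp and 0.87 without HFCSD replicate 3. All HFCSD arrays were higher for 0 members and lower for 1. Farthest from 0 were DES, at 1.17 over its probes, CAV3 at 1.11, PYGM at 1.07 and TPM1 at 0.78. The summed level of the list was 12.77, 13.16 and 12.45 with HFCD and 13.81, 13.30 and 12.80 with HFCSD, with FHL1 the brightest. The muscle genes CKM, MB and MYH7 were not well above background on all arrays of either diet. Smooth muscle and vessel wall genes had 15 of 19 higher and a median of 0.27. SMTN, of the smooth muscle cytoskeleton, was at 6.68, 8.35 and 7.65 with HFCD and at 9.16, 8.86 and 8.46 with HFCSD, and COL6A1, a collagen chain, was at 4.41, 6.05 and 5.47 with HFCD and at 6.57, 6.73 and 6.21 with HFCSD. Both genes had all HFCSD arrays higher, by a narrow margin over HFCD replicate 2, and the proteoglycan DCN (1.25) did not. The list summed to 12.11, 13.54 and 12.69 with HFCD and to 13.69, 13.33 and 13.14 with HFCSD, with THBS1 the brightest. The part of RNA from these tissues in the other results was not tested.

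A last list held genes that the study tabulated from these samples, so it is not independent evidence of any direction. Of 16 tested genes 8 were higher and 8 lower, with a median of -0.07 that was 0.06 with slide as a fixed block, 0.45 within slide 12 and 0.16 over all 18 genes on the array. GRK7, WNT10B, CXCL10 and ROMO1, described above, were the 4 farthest from 0. UPK2 (0.85), RSAD2 (-0.55) and MX2 (-0.70) overlapped between the diets.

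**Figure D3:**
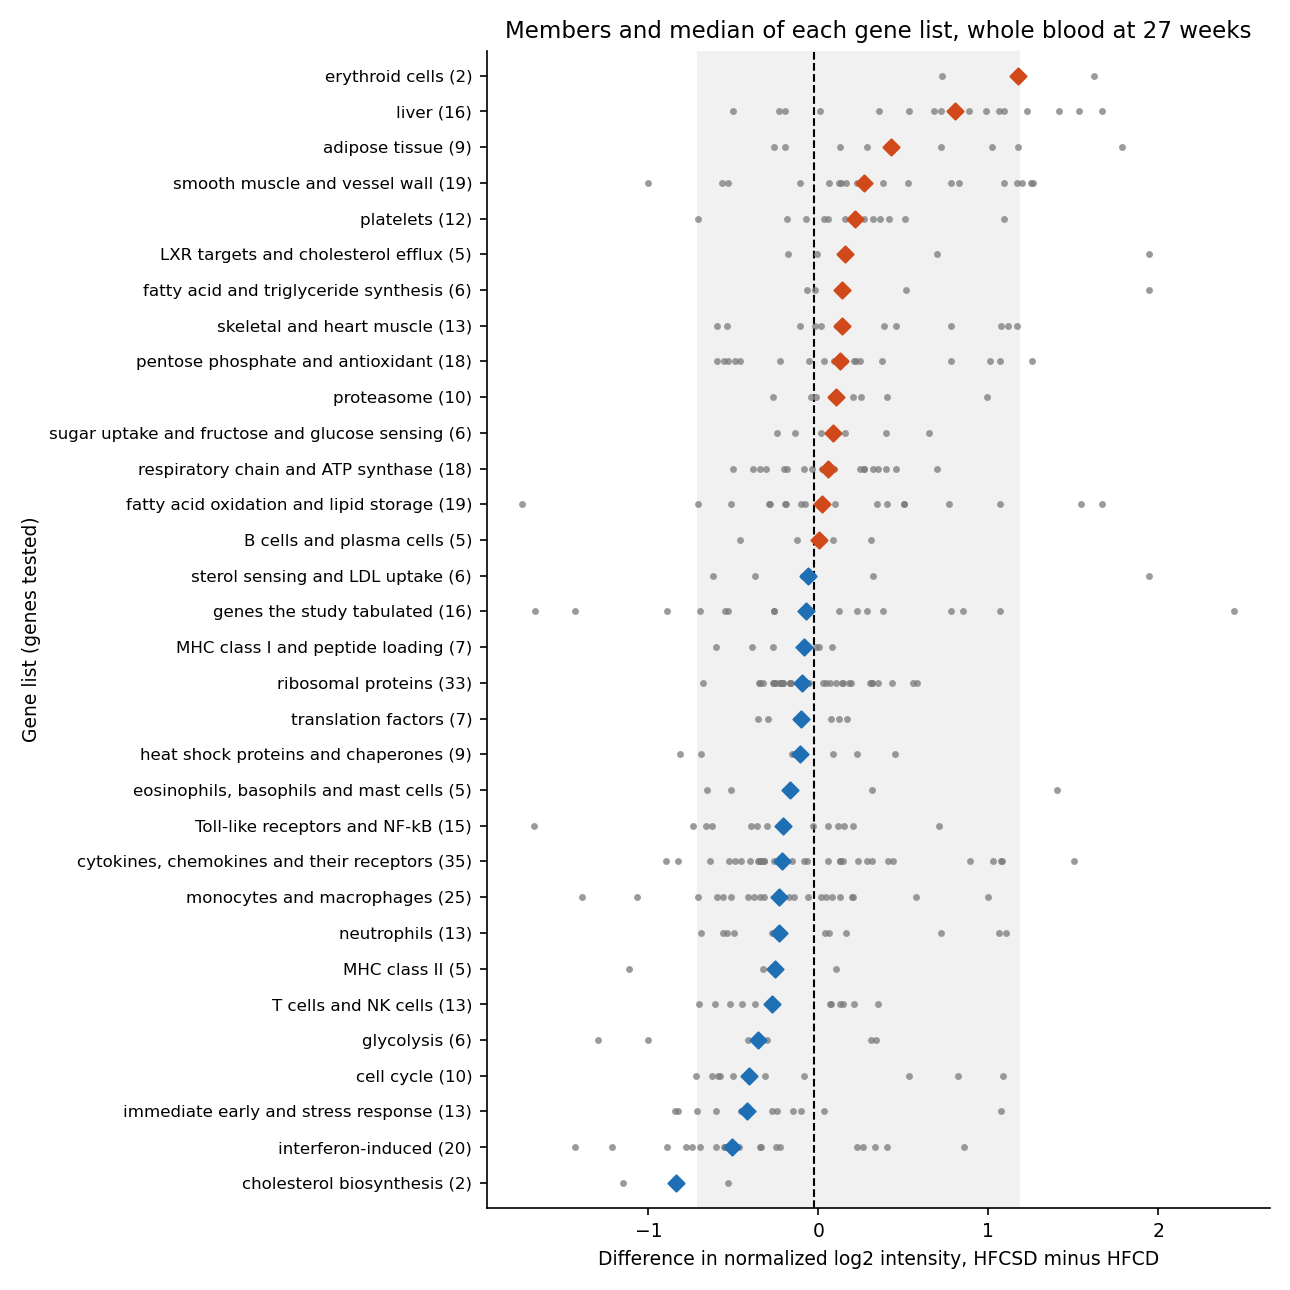
Difference in normalized log2 intensity (HFCSD minus HFCD) of every tested gene of the 32 lists (grey points) with the list median (diamonds, red above and blue below the median of all genes), beside the median of all 1255 genes (dashed line) and their 5th to 95th percentile (shaded, -0.71 to 1.18). The medians run from -0.84 for cholesterol synthesis to 1.17 for erythroid cells, and of the 32, 5 change sign with 75th percentile scaling, 2 after normexp, 7 with slide as a fixed block, 8 within slide 12 and 12 with the share of spots as a covariate.

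Whether the same addition of sucrose moved whole blood at other periods, or white blood cells alone, was asked of arrays not used above. HFCSD against HFCD called 0 of 17916 probes at 10 weeks, 0 of 16277 at 19 weeks and 0 of 18797 in white blood cells at 27 weeks (limma). Of the called probes, A_72_P371473 was too dim to be tested in any of these comparisons. A_72_P139261 was too dim at 10 and 19 weeks, and in white blood cells it differed by -0.09 (SE 0.269). At an unadjusted p under 0.05 the 3 counts were 886 (4.95%), 254 (1.56%) and 408 (2.17%), with 1603 at 10 weeks when the replicate number was a block. In whole blood at 27 weeks it was 2259 (12.5%). There it was 887 without HFCD replicate 1, 874 without HFCSD replicate 1 and 1253 to 4262 with another array of either diet left out. Numbers of arrays differ (3 of each diet in whole blood at 27 weeks, 4 of each at 10 weeks), so the counts do not compare sizes of effect. At 10 weeks all 12 genes of the higher group were higher and 11 of the 12 genes of the lower group were lower, with median differences of 0.50 and -0.55. Of the lower group 5 were too dim to be tested at 10 weeks, and the 7 tested were all lower, with a median of -0.54. Over all 1265 tested genes at 10 weeks 41.5% were higher and 58.5% lower, and at 19 weeks 54% of 1180 were higher and 46% lower. HFCSD also had the smaller share of spots well above background at 10 weeks (mean 43.7%, against 47.8%) and the larger at 19 weeks (42.8%, against 40.2%), and the part of this in the signs was not tested. ROMO1 differed by 1.06 and GRK7 by 1.05 there, and each of the 24 overlapped between the diets at 10 weeks. At 19 weeks 1 of 12 was higher and 4 of 12 lower, with medians of -0.42 and 0.27, and GRK7 was at -0.76 and ACSL1 at -1.07, while UCP3 was well above background on 3 of 3 HFCSD arrays and on 2 of 4 HFCD arrays and 4 genes of the lower group were too dim to be tested. In white blood cells 7 of 12 were higher and 9 of 12 lower, with medians of 0.03 and -0.35. Of the lower group 2 were too dim to be tested in these cells, and 8 of the 10 tested were lower, with a median of -0.49. Over all 1321 tested genes of white blood cells 41.9% were higher and 58.1% lower. GRK7 was at 0.05, ROMO1 at 0.15, FCN2 at -1.099 and TOP2A at -0.77.

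The contrast of the 2 sample types was tested directly. The study bled the same pigs at successive periods, but this fit and those between periods treated every array as a separate pig. Their p-values make no allowance for a pig measured more than once. The difference with sucrose was itself unlike in white blood cells and in whole blood for 6 of 20445 probes (0.0293%, limma), 1 with the larger value in whole blood and 5 with the smaller, and for 1514 (7.41%) at an unadjusted p under 0.05. A_72_P371473 was 1 of the 6, but it was well above background on none of the 4 HFCD and 4 HFCSD arrays of white blood cells and on none of the HFCSD arrays of whole blood, so the size of its difference was not measured. None of the 6 was well above background on any array of 1 of the 2 diets in whole blood. That count was 0 with 75th percentile scaling, after normexp and with replicate numbers as a block. For GRK7 the difference between sample types was 2.40 (adjusted p 0.552) and for ACSL1 2.10 (adjusted p 0.554). Between 27 and 10 weeks 0 of 19056 probes differed in their response, with 353 (1.85%) at an unadjusted p under 0.05, and between 27 and 19 weeks 0 of 18283, with 1774 (9.7%).

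**Figure D4:**
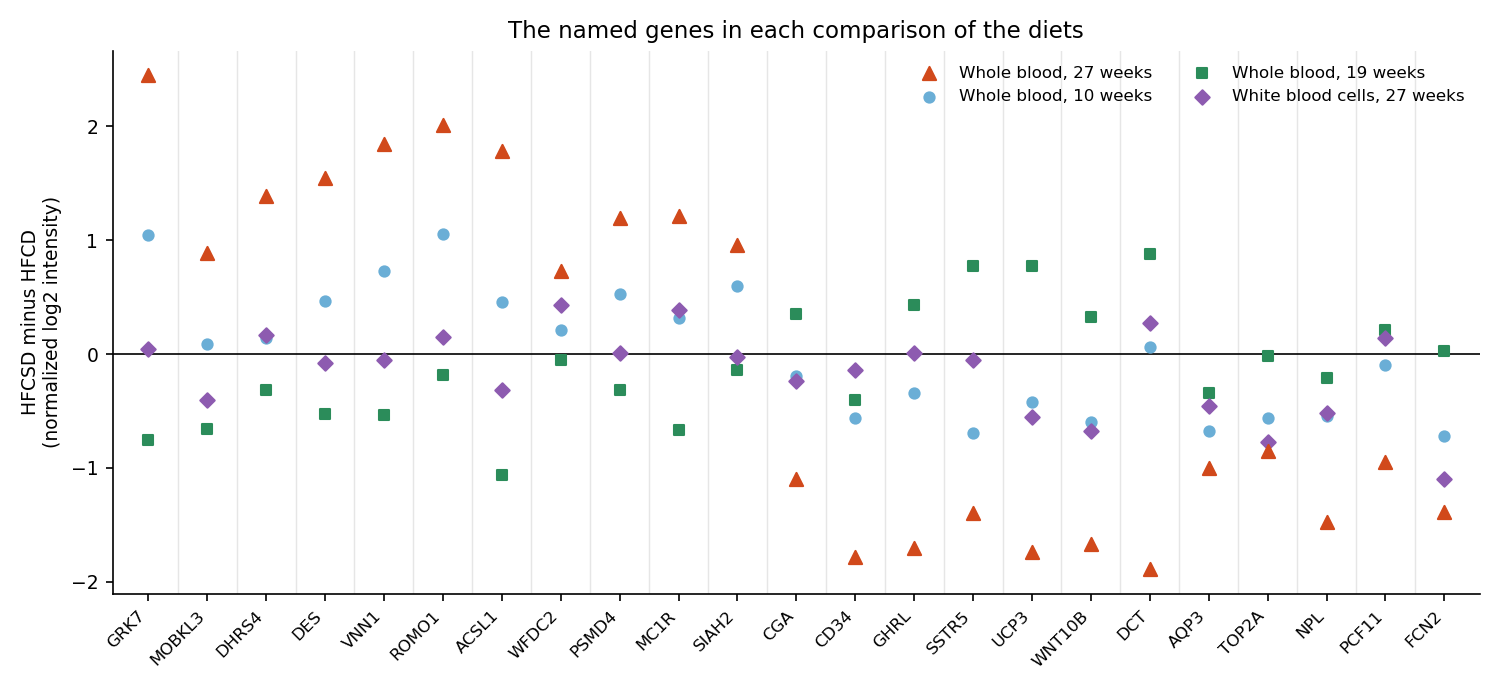
Difference in normalized log2 intensity (HFCSD minus HFCD) of 23 of the 24 named genes in whole blood at 27 weeks (triangles), at 10 weeks (circles), at 19 weeks (squares) and in white blood cells at 27 weeks (diamonds). The circles share the sign of the triangles for 22 of the 23 genes shown, with smaller sizes, up to 1.06 for ROMO1, and the genes were chosen on the triangles.

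The methods of the study name a fold above 2.0 or below 0.5 and a p under 0.05. Applied here to HFCSD against HFCD, with the p of a t-test left unadjusted, it gave 328 of 18003 probes (1.82%), 175 higher (0.972%) and 153 lower (0.85%). None of them passed Benjamini-Hochberg adjustment. Scaling by the 75th percentile gave 191 higher and 115 lower, and normexp gave 82 higher and 1 lower, while no filter gave 394 higher and 541 lower. Lower probes were the more numerous in 5 of the 6 fits with 1 array of either diet left out: 66 higher and 75 lower without HFCD replicate 1, 53 and 114 without HFCD replicate 3, and 47 and 97, 87 and 235, and 202 and 426 without HFCSD replicates 1, 2 and 3. Without HFCD replicate 2 there were 922 higher and 271 lower. The totals were 141, 1193 and 167 without HFCD replicates 1, 2 and 3, and 144, 322 and 628 without HFCSD replicates 1, 2 and 3.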

How the data were processed

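RNA of 45 samples was measured on 1-colour Agilent arrays. The authors deposited the spot intensities written by Feature Extraction (10.5.1.1 per the file headers), with background subtracted within each array, and a series table of quantile normalized intensities on a linear scale. The median of each column of that table was 0.0998 to 0.101, and it was used only as an alternative. Samples were grouped by their labels. Of 43803 probe spots per array, those marked as outliers were left out, log2 intensities were quantile normalized over all 45 arrays, and spots of the 43603 probes were averaged. A probe was tested if well above background on every usable array of HFCD or of HFCSD. limma 3.58.1 in R 4.3.3 was fitted to the 3 diets of 27 weeks (10 arrays), with Benjamini-Hochberg adjustment at 0.05. Tables and plots were made in Python 3.11.15 (matplotlib 3.10.9, scipy 1.17.1, pandas 2.3.3, numpy 2.4.6), and the fit was tested on simulated data.

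Of 43603 probes, 3278 were named with 2195 symbols through accessions, gene names and descriptions in the files matched to RefSeq tables, 451 of them by a similar protein, and 40325 stayed unnamed. Named genes were to be 12 rises and 12 falls that passed adjustment without overlap of the groups, largest first, or, since none passed, those with the lowest unadjusted p without overlap, then the 4 members of each list with the largest difference, the genes the study tabulated, at most 2 called probes without a symbol in each direction, and markers of each cell type. Other list members in the text were named after their values were seen. Some genes chosen by these rules are left out of the text and plots but stay in every count and median. Members and lists were chosen with earlier results of these data known.

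Alternatives were 75th percentile scaling, normexp with an offset of 50, the series table, normalization over the arrays of the fit, other presence filters, the replicate number as a block, slide as a random or fixed block and within slide 12, other sets of samples, the methods' t-test, the share of spots as a covariate, and each array left out in turn. The number of arrays limits the precision.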

Additional observations from a re-analysis of the deposited data

Results flagged for a closer look

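Of 35 groups of 4 arrays that were checked, 4 held an array far from the others, about 1 in 20 being expected by chance, and all 4 are control groups at 27 weeks. Since the control is the only diet with 4 arrays of whole blood at that time, most of the groups checked were control groups. In ACSL1 control replicate 3, at 7.854, lay below the other controls. In NPL control replicate 1, at 6.601, and in PCF11 control replicate 1, at 9.44, lay above them. In FCN2 control replicate 4, at 3.825, lay below them, and that array also had the smallest share of spots well above background of the 4 controls.

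The difference between diets in whole blood differed from that in white blood cells for 6 probes, by a test of the difference itself (limma, adjusted p under 0.05). That test treated arrays of both sample types as separate pigs. The value, whole blood minus white blood cells, was 3.014 for A_72_P398853, -2.229 for A_72_P033511, -2.136 for A_72_P055626, -3.21 for A_72_P371473, -2.236 for A_72_P083326 and -1.864 for A_72_P007461. These values rest on levels not well above background and are no measured sizes. A_72_P398853 was well above background on 0 of 3 HFCD arrays of whole blood and on no array of either diet in white blood cells, and each of the other 5 probes was so on 0 of 3 HFCSD arrays of whole blood.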

How the results depend on the processing

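The count of 2 called probes in whole blood at 27 weeks was 2 with the series table, with normalization over the arrays of the fit and with slide as a random block. It was 1 with the weaker presence flag and with no filter. It was 0 with 75th percentile scaling, normexp, presence on every array of both diets and slide as a fixed block (chosen after seeing the data). The count was also 0 with only the 2 diets in the fit, all 45 arrays in 1 fit, the methods' t-test and the share of spots as a covariate. With the replicate block it was 0. Leaving out 1 array gave 0 to 42. Deviations of same-numbered HFCD and HFCSD arrays had correlations of unlike sign (r -0.364, -0.0408 and 0.317). Deviations within so few arrays depend on each other, so these values cannot decide whether the numbers pair the samples.

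With no filter 1 probe was called in white blood cells at 27 weeks, 17 for the difference between sample types, 3 for that between 27 and 10 weeks and 1 for that between 27 and 19 weeks. The 6 probes that differed between sample types were 0 with 75th percentile scaling, with normexp and with the replicate block. Of the counts past adjustment that block changed these 2 (2 to 0 and 6 to 0). At an unadjusted p under 0.05 it also moved 886 to 1603 at 10 weeks, 254 to 152 at 19 weeks and 1774 to 1234 for 27 against 19 weeks. The criterion of the methods gave 83 probes with normexp, 935 with no filter and 141 to 1193 with 1 array left out.

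The count of named genes and of list genes past the test was 0 throughout, except with 1 array left out (0 to 1 for each). Of 800 list medians under alternatives, 768 stayed within the spread between arrays and 32 did not. The causes were not tested.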

Other observations

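The other 5 probes whose response to sucrose differed between sample types have no symbol. A_72_P398853, a pig cDNA clone, was well above background on 3 of 3 HFCSD arrays of whole blood, at a mean log2 level of 5.50, and on none of the 3 HFCD arrays. A_72_P083326, another cDNA clone, was well above background on 2 of 3 HFCD arrays and on 0 of 3 HFCSD arrays of whole blood, and on all 8 arrays of these diets in white blood cells, at means of 5.29 with HFCD and 5.09 with HFCSD.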
